A study of Bos taurus with 6 samples.

Results

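The Kennedy pathway makes phosphatidylcholine and phosphatidylethanolamine, the most abundant phospholipids of mammalian membranes. It was followed here through 10 genes that encode its kinases, cytidylyl transferases and phosphotransferases, together with *PEMT*. The genes were taken by symbol from the raw count table, which holds 15693 genes. Of the 10 symbols, 9 were rows of that table, and all 9 passed the filter on low counts. The exception was *CHPT1*, which is a row of the FPKM table only.

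In the pathway, choline or ethanolamine is first phosphorylated by a kinase. A cytidylyl transferase then joins the product to CTP, giving CDP-choline or CDP-ethanolamine, and a phosphotransferase moves the head group onto diacylglycerol. *PEMT* encodes an enzyme outside this route that methylates phosphatidylethanolamine to phosphatidylcholine and is known mainly from the liver. In the mammary gland both phospholipids are part of the membrane that wraps the milk fat globule.

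Total RNA of bovine mammary epithelial cells (bMECs) was sequenced in 2 groups of 3 libraries. ACADSB-/- bMECs had been transfected with a plasmid carrying Cas9, green fluorescent protein and a guide against *ACADSB*, a mitochondrial acyl-CoA dehydrogenase gene. They were grown from a single sorted cell, and what that 1 cell brought along cannot be told apart from the loss of *ACADSB*. WT bMECs, called control in the sample labels, were the cells without the edit. For the RNA extraction the paper calls them negative control cells. The cells of both groups are labelled as from the mammary tissue of Chinese Holstein dairy cows in lactation, and the paper names 1 healthy cow as their origin. The basal medium held serum, hydrocortisone and insulin, and after sorting the single edited cells were grown in plates with a higher share of serum. It is not stated whether WT bMECs were also transfected, sorted or grown in this way. A difference in culture history cannot be told apart from the loss of *ACADSB*. Whether the 3 libraries of a group stem from separate cultures is not stated. The paper writes of pooled RNA samples without naming what was pooled. All p-values rest on the spread among libraries alone, which may be technical.

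The libraries held 30550275 to 34983965 counts. *ACADSB* itself had 9, 7 and 15 counts in ACADSB-/- libraries, against 38, 34 and 20 counts in WT libraries, and its log2 fold change was −1.60 (edgeR adjusted p = 0.00357). Among 11 epithelial markers 10 stood at 1 FPKM or more in every library, while *ELF5* was listed at 0 throughout. The epithelial markers summed to 5271 to 5667 FPKM in ACADSB-/- and 5963 to 6165 FPKM in WT libraries, which do not overlap. Of the 10 that could be tested, 4 rose and 4 fell, where 29.7% and 28.6% of all 13720 tested genes did. On the log2 scale *EPCAM* rose by 0.60, *CDH1* by 0.42, *KRT7* by 0.40 and *KRT5* by 0.16. In the other direction *KRT17* fell by 2.99, *KRT14* by 0.92, *KRT18* by 0.56 and *KRT8* by 0.19. *KRT19* and *TP63* did not pass an adjusted p of 0.05 in edgeR. Among 6 milk protein genes with FPKM values, 5 were listed at 0 in every library, as were 13422 of the 32774 genes of the FPKM table. The summed level of 7 fibroblast markers was 597 to 624 FPKM in ACADSB-/- and 498 to 536 FPKM in WT libraries. This level came nearly all from *DCN*. *COL1A2* had 0 counts in every ACADSB-/- library and 15, 12 and 5 counts in WT libraries, too few to be tested. Immune markers summed to 2.18 to 3.12 FPKM in ACADSB-/- and 1.38 to 2.10 FPKM in WT libraries, with *PTPRC* at 0. Most of this sum was *CD68*, at a mean of 2.46 FPKM in ACADSB-/- and 1.64 FPKM in WT libraries. Endothelial markers summed to 0.464 to 0.715 FPKM in ACADSB-/- and 0.698 to 0.834 FPKM in WT libraries, with *CDH5* at 0. Their members moved apart, *PECAM1* having 1, 1 and 0 counts in ACADSB-/- and 30, 42 and 52 counts in WT libraries, and *VWF* 191, 102 and 146 counts in ACADSB-/- and 62, 77 and 55 counts in WT libraries. Adipocyte markers summed to 0.968 to 1.34 FPKM in ACADSB-/- and 1.77 to 2.07 FPKM in WT libraries. These sums differed mostly through *CIDEC*, at a mean of 0.610 FPKM in ACADSB-/- and 1.39 FPKM in WT libraries. *PLIN1* had means of 0.480 FPKM in ACADSB-/- and 0.485 FPKM in WT libraries. The part of these markers in the differences below was not tested, and in bulk RNA fewer cells of a type cannot be told apart from less RNA per cell.

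The genes of the pathway moved apart from one another. *CEPT1*, which encodes the last enzyme, *ETNK1*, an ethanolamine kinase, and *PCYT1A*, the main choline-phosphate cytidylyl transferase, rose in ACADSB-/- bMECs, and the choline kinase *CHKA* fell. The other 5 tested genes did not pass the test. Thus 4 of the 9 passed an adjusted p of 0.05 in edgeR's quasi-likelihood test, where 58.2% of all 13720 tested genes did. Of the 9, 3 rose, against 29.7% of all tested genes, and 1 fell, against 28.6%. With a change of at least 2-fold required, 2 of the 9 were called, *CEPT1* and *ETNK1*, where 10.2% of all tested genes were. Both were higher, as were 5.3% of all tested genes, and 0 of the 9 were lower, where 4.92% of all were. For 4 of the 9 no library of one group lay within the range of the other, where this held for 63.6% of all tested genes. Of these, 3 were higher and 1 was lower in ACADSB-/- libraries, where 31.9% and 31.7% of all tested genes were. A count near the share of all genes is no result about the pathway as a whole, so each gene is described on its own. The median log2 fold change was −0.01 over the 9 genes and 0.00 over all tested genes, and the median absolute value was 0.34 over the 9 and 0.31 over all.

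**Figure D1:**
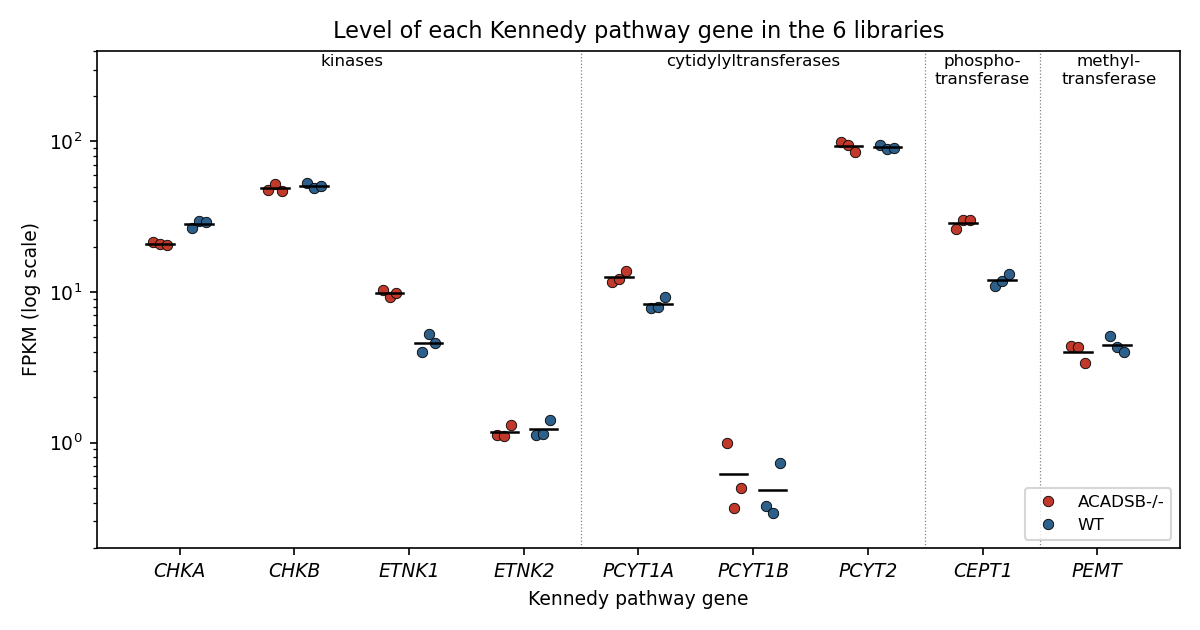
Level of 9 Kennedy pathway genes in each library, as FPKM on a log axis, with ACADSB-/- libraries in red left of WT libraries in blue and a line at the mean of the 3 libraries. The groups separate for *CHKA* (lower in ACADSB-/-) and for *ETNK1*, *PCYT1A* and *CEPT1* (higher in ACADSB-/-), and *CHPT1*, at 0 in all 6 libraries, is not drawn.

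The first step is carried out by kinases encoded by 4 genes. *CHKA* encodes choline kinase alpha, and its gene model lies on chromosome 29 (46532635 to 46568874, minus strand). Coordinates are as deposited, on a build not given in the sources used here. It had 1599, 1357 and 1355 counts in ACADSB-/- libraries, against 1876, 1928 and 1988 counts in WT libraries. Every ACADSB-/- library was below every WT library, also after scaling. The level per gene length was 20.9 ± 0.471 FPKM in ACADSB-/- and 28.4 ± 1.70 FPKM in WT bMECs (SD, n = 3), and the log2 fold change from the counts was −0.48 (standard error, SE, 0.0665, edgeR adjusted p = 3.6e-07).

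*CHKB* encodes choline kinase beta, which also accepts ethanolamine and which lies next to the muscle carnitine palmitoyltransferase gene *CPT1B* on chromosome 5 (120455509 to 120459071, minus strand). It was the most abundant kinase transcript of the pathway, at 48.7 ± 2.77 FPKM in ACADSB-/- and 50.9 ± 1.61 FPKM in WT bMECs (SD, n = 3). Its 2763, 2647 and 2428 counts in ACADSB-/- libraries overlapped the 2912, 2522 and 2687 counts in WT libraries. The log2 fold change was −0.10, with a 95% interval of −0.22 to 0.02, which does not hold a change as large as that of *CHKA*. *CPT1B*, 425 bases away on the same strand, had only 64, 37 and 46 counts in ACADSB-/- and 57, 66 and 59 counts in WT libraries.

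*ETNK1*, an ethanolamine kinase gene on the minus strand of chromosome 5 (88200696 to 88255223), had 2442, 1893 and 2065 counts in ACADSB-/- libraries, against 897, 1076 and 982 counts in WT libraries. The lowest ACADSB-/- library stood well above the highest WT library. Its level was 9.82 ± 0.585 FPKM in ACADSB-/- and 4.61 ± 0.604 FPKM in WT bMECs (SD, n = 3). The log2 fold change was 1.06 (SE 0.0789, edgeR adjusted p = 5.7e-12), and 9.81% of all tested genes changed more in either direction.

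*ETNK2*, the second ethanolamine kinase gene, on the minus strand of chromosome 16 (1735559 to 1753781) and known from mouse studies mainly in the liver, was read at 100, 86 and 103 counts in ACADSB-/- and 95, 88 and 113 counts in WT libraries. The groups overlapped throughout this narrow range. Its log2 fold change was −0.09, and the 95% interval of −0.49 to 0.32 does not hold a change as large as that of *ETNK1*.

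The make-up of the kinase transcripts differed between the groups more than their sum did. The 4 kinases together reached 80.5 ± 2.23 FPKM in ACADSB-/- and 85.2 ± 0.932 FPKM in WT bMECs (SD, n = 3), and the sums did not overlap, at 78.5 to 83.0 FPKM in ACADSB-/- and 84.2 to 86.1 FPKM in WT libraries. *ETNK1* took 12.9%, 11.1% and 12.6% of this sum in ACADSB-/- libraries, against 4.77%, 6.13% and 5.34% in WT libraries. *CHKA* took 26.7%, 25.0% and 26.0% in ACADSB-/- libraries against 31.4%, 34.6% and 34.1% in WT libraries. For both shares the groups were apart in every library, and the share of *CHKB*, 57.9% to 62.5% over all 6 libraries, overlapped. Within the ethanolamine kinases alone *ETNK1* made up 88.3% to 90.2% in ACADSB-/- and 76.6% to 82.2% in WT libraries. These sums and shares are descriptions of FPKM values and were not tested.

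**Figure D2:**
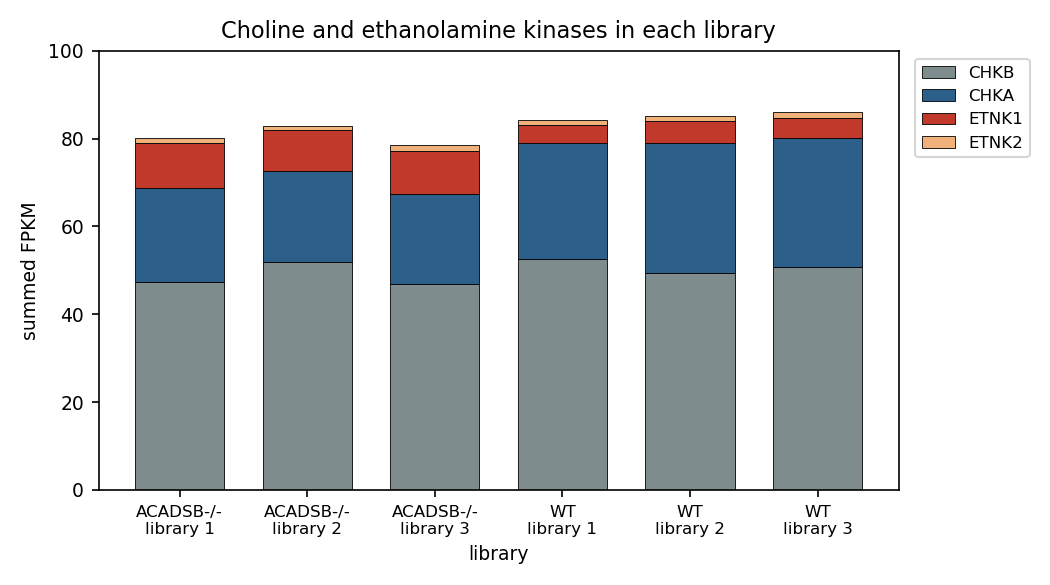
Stacked FPKM of the 4 choline and ethanolamine kinase genes in each library, ACADSB-/- on the left and WT on the right. The *ETNK1* band is wider in ACADSB-/- libraries (11.1% to 12.9% of the sum) than in WT libraries (4.77% to 6.13%), and the *CHKA* band is narrower.

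The second step forms the CDP-activated head group and is usually the slowest of the choline branch. *PCYT1A* encodes the main choline-phosphate cytidylyl transferase, an enzyme that becomes active on binding to membranes, and its model lies on the minus strand of chromosome 1 (71687849 to 71740328). It had 664, 609 and 697 counts in ACADSB-/- libraries, against 422, 395 and 476 counts in WT libraries. Again no ACADSB-/- library fell into the range of the WT libraries. The level was 12.6 ± 1.12 FPKM in ACADSB-/- and 8.36 ± 0.781 FPKM in WT bMECs (SD, n = 3), a log2 fold change of 0.56 (SE 0.102, edgeR adjusted p = 2.7e-05). The end of its model overlaps the opposite-strand gene *SLC51A*, which held at most 0.0921 FPKM in any library.

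*PCYT1B* encodes a second choline-phosphate cytidylyl transferase, known in mice from brain and gonads, and was barely read. Its model is on the plus strand of chromosome X (126924541 to 127042878). It had 50, 16 and 22 counts in ACADSB-/- libraries, against 18, 15 and 33 counts in WT libraries. One ACADSB-/- library was above the others and the groups overlapped. Its log2 fold change of 0.34 had a 95% interval of −0.55 to 1.22 and was −0.20 without ACADSB-/- replicate 1, so no difference was detectable at this depth, and a 2-fold rise lies within the interval. *PCYT1A* accounted for 92.1% to 97.1% of the FPKM of the pair in ACADSB-/- and 92.7% to 95.9% in WT libraries.

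*PCYT2* encodes the ethanolamine-phosphate cytidylyl transferase and had the highest level of the whole pathway. It lies on the plus strand of chromosome 19 (51807571 to 51814725). Its level was 98.9, 95.2 and 85.1 FPKM in ACADSB-/- libraries, against 94.7, 89.6 and 90.0 FPKM in WT libraries. The ACADSB-/- values lay on both sides of the WT values. With 4837 to 6341 counts per library it was also the best measured, and the log2 fold change of −0.01 had a 95% interval of −0.12 to 0.11. *PCYT1A* relative to *PCYT2* was 0.118, 0.129 and 0.163 in ACADSB-/- libraries, against 0.0829, 0.0889 and 0.103 in WT libraries (ratio of FPKM).

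The third step joins the head group to diacylglycerol. *CEPT1* encodes the choline/ethanolamine phosphotransferase of the endoplasmic reticulum, which can use either CDP-activated head group. It lies on the minus strand of chromosome 3 (32550615 to 32587048). It had 1886, 1883 and 1907 counts in ACADSB-/- libraries, against 748, 749 and 856 counts in WT libraries. This was the clearest separation among the genes of the pathway, with the lowest ACADSB-/- count more than double the highest WT count. *CEPT1* stood at 28.7 ± 2.15 FPKM in ACADSB-/- and 11.99 ± 1.08 FPKM in WT bMECs (SD, n = 3), a log2 fold change of 1.22 (SE 0.0789, edgeR adjusted p = 4.5e-14). Of all tested genes 7.57% changed more in either direction.

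*CHPT1*, the cholinephosphotransferase that uses CDP-choline alone, was listed at 0 FPKM in all 6 libraries. Its gene model lies on chromosome 5 (66046541 to 66076141, plus strand). Since 13422 genes are listed at 0 in every library and *CHPT1* has no row of counts, a silent gene and one missed by the counting cannot be told apart, and no limit on its level is given. The 3′ end of the model overlaps that of *SYCP3* on the opposite strand, a gene of the meiotic chromosome axis, and that gene had 1, 1 and 0 counts in ACADSB-/- libraries, against 48, 74 and 75 counts in WT libraries. Reads of such a pair cannot be told apart if strand was not used in counting, which no source states.

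The ethanolaminephosphotransferase gene listed as *EPT1* (*SELENOI*) makes phosphatidylethanolamine by the same reaction and was added as the counterpart of *CEPT1*. It had 370, 222 and 325 counts in ACADSB-/- and 255, 204 and 200 counts in WT libraries. One ACADSB-/- library lay within the WT range after scaling. Its log2 fold change was 0.42 (SE 0.146, edgeR adjusted p = 0.0144). The call ended without ACADSB-/- replicate 1, ACADSB-/- replicate 3 or WT replicate 3 (adjusted p = 0.0987, 0.083 and 0.0712 from edgeR). It also ended with limma on log2(FPKM + 1) with no filter (adjusted p = 0.0807 from limma). *CEPT1* relative to *EPT1* was 3.68, 6.13 and 4.24 in ACADSB-/- libraries, against 2.12, 2.65 and 3.09 in WT libraries (ratio of FPKM).

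*PEMT*, the methyltransferase beside the pathway, stayed low in both groups and lies on the same chromosome as *PCYT2* (35555969 to 35586697, plus strand). It had 192, 166 and 132 counts in ACADSB-/- libraries, against 212, 166 and 160 counts in WT libraries. The groups overlapped, with equal counts in the second library of each. Its log2 fold change was −0.18, with a 95% interval of −0.52 to 0.15.

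**Figure D3:**
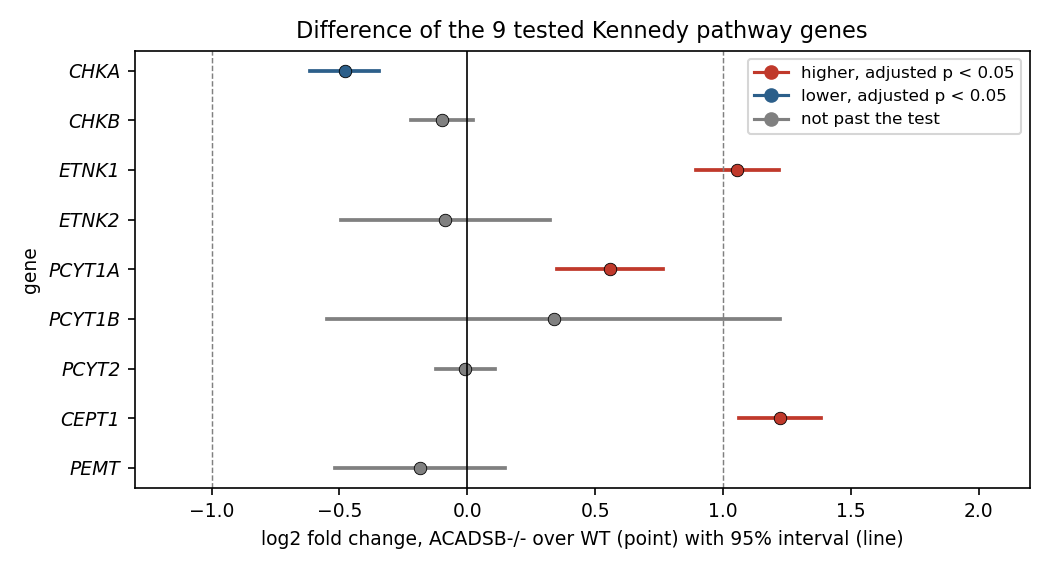
Log2 fold change of each tested Kennedy pathway gene, ACADSB-/- over WT, with its 95% interval from edgeR and dashed lines at 2-fold. *CEPT1* (1.22), *ETNK1* (1.06) and *PCYT1A* (0.56) lie right of 0 with their intervals, *CHKA* (−0.48) lies left of it, and the other 5 intervals hold 0.

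Ordered by level per gene length, ACADSB-/- bMECs had *PCYT2* first, followed by *CHKB*, *CEPT1*, *CHKA*, *PCYT1A*, *ETNK1*, *PEMT*, *ETNK2* and *PCYT1B*. None of these neighbours overlapped over the 3 libraries. In WT bMECs *CHKA* stood above *CEPT1*, and *ETNK1* at 4.61 ± 0.604 FPKM overlapped *PEMT* at 4.46 ± 0.551 FPKM (SD, n = 3). The exchange of *CEPT1* and *CHKA* was seen in each library, the FPKM ratio of *CEPT1* to *CHKA* being 1.23, 1.44 and 1.46 in ACADSB-/- libraries, against 0.414, 0.404 and 0.447 in WT libraries. Summed over each step, the phosphotransferases among the 10 genes stood at 2.39 times the WT level in ACADSB-/- bMECs. This sum is *CEPT1* alone, as *CHPT1* was listed at 0, and it leaves out *EPT1*. The choline cytidylyl transferases stood at 1.497 times, the ethanolamine cytidylyl transferase at 1.02 times, the kinases at 0.946 times and *PEMT* at 0.900 times.

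Of the tested genes around *CEPT1*, 10 of 15 were higher as well. Nearest to it is *DRAM2*, a gene of lysosomal membranes and autophagy, on the plus strand and 141 bases beyond the start of *CEPT1*, so that the models point away from each other. *DRAM2* had 1145, 996 and 1000 counts in ACADSB-/- libraries, against 395, 554 and 512 counts in WT libraries, and rose by 1.05 on the log2 scale (SE 0.11, edgeR adjusted p = 2.7e-08). *DENND2D*, a guanine nucleotide exchange factor gene 2577 bases from the other end of *CEPT1*, had 193, 158 and 162 counts in ACADSB-/- and 90, 68 and 100 counts in WT libraries and rose by 0.94 on the log2 scale. *LRIF1*, a nuclear receptor-interacting factor gene at 135500 bases, rose by 0.99 on the same scale. The 1 neighbour that changed more than *CEPT1*, the potassium channel gene *KCNC4*, had 295, 206 and 236 counts in ACADSB-/- and 55, 46 and 42 counts in WT libraries and rose by 2.31 on the log2 scale. Neither *DRAM2* nor *DENND2D* had a library of one group in the range of the other.

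Within 1 Mb of *CEPT1* 10 of 15 tested genes rose, none fell and 5 were not past the threshold, with a median log2 fold change of 0.44. Over the 774 other tested genes of chromosome 3, 42.5% were higher and 21.6% lower. These neighbours were looked up after the values of *CEPT1* were known, no test was run on the region, and its part in the rise of *CEPT1* was not tested.

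**Figure D4:**
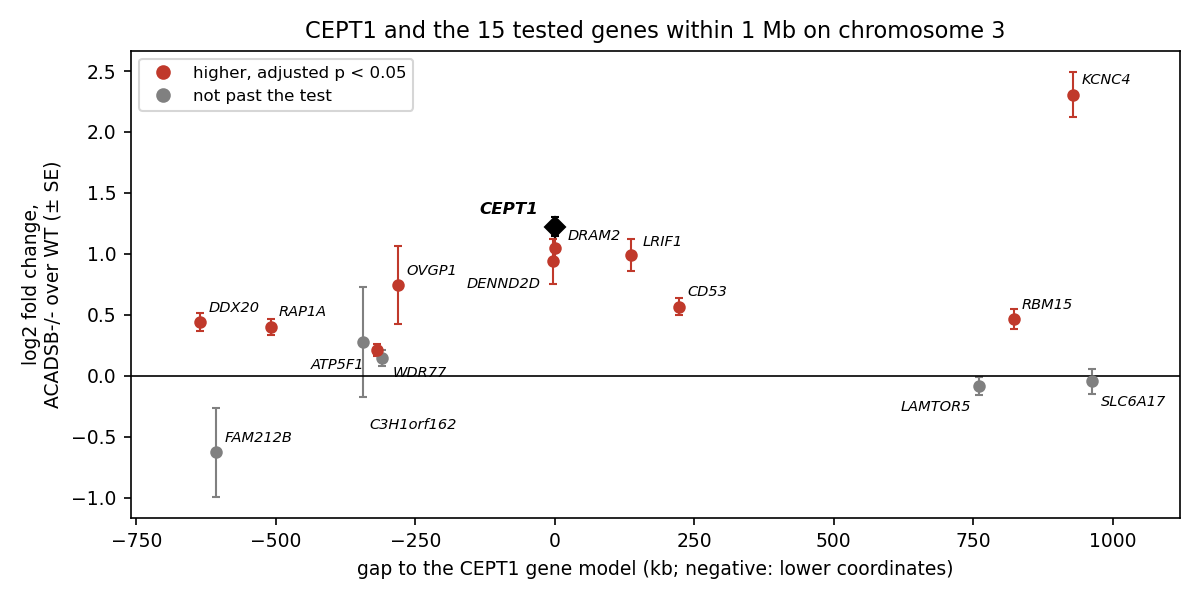
Log2 fold change of *CEPT1* (diamond) and of the 15 tested genes within 1 Mb, ACADSB-/- over WT, against the gap to the *CEPT1* model in kb, with bars of 1 standard error. The 10 genes in red passed the test and all are above 0, with *DRAM2* (1.05) and *DENND2D* (0.94) next to *CEPT1* and *KCNC4* the highest (2.31), and the 5 in grey did not pass.

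Around the other genes of the pathway that passed the test, more tested genes also moved in the direction of the gene than against it. The part of these surroundings in the differences was not tested. Of 57 tested genes within 1 Mb of *CHKA* 26 were lower and 9 higher, and on chromosome 29 as a whole 41.2% of 386 other tested genes were lower and 19.7% higher. Near *PCYT1A* 14 of 30 tested genes were higher and 4 lower, and chromosome 1 had 37.3% higher and 27.3% lower. *ETNK1* has only 3 tested genes within 1 Mb, of which 2 were higher and 1 lower, and chromosome 5 had 29.2% higher and 28.6% lower. The closest of the 3, *C2CD5*, rose by 0.71 (SE 0.0741). None of the 3 changed as much as *ETNK1*.

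Over all tested genes the difference moved with the length of the gene model. Genes of 3871 to 199229 bases, which include *ETNK1* with 6735 bases, had a median log2 fold change of 0.14, with 42.4% higher and 21.5% lower. Genes of 1844 to 2569 bases, which include *CEPT1*, *CHKA* and *ETNK2*, had a median of −0.01, and genes of 1249 to 1843 bases, which include *PCYT1A*, had −0.06. The part of length in the differences of the pathway genes was not tested.

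Genes that feed or drain the pathway were read from 10 further lists with 64 genes, of which 52 could be tested. Of these, 18 rose and 14 fell in ACADSB-/- bMECs, and 20 were not past the threshold, with a median log2 fold change of 0.07. Over all tested genes 29.7% rose and 28.6% fell, so these counts lie near the background and are no result about the lists. Changes of these genes are given on the log2 scale throughout. Choline enters cells through carriers, and of 5 tested carrier genes 2 rose, where 29.7% of all tested genes did, too few genes to read more from the count. *FLVCR1*, which carries choline and ethanolamine, rose by 0.43 (503, 385 and 370 counts in ACADSB-/- and 317, 293 and 291 counts in WT libraries), and the choline transporter-like gene *SLC44A2* rose by 0.25.

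Phosphoethanolamine also arises when *SGPL1*, the sphingosine-1-phosphate lyase, splits its substrate. *SGPL1* had 3486, 2988 and 3548 counts in ACADSB-/- libraries, against 6719, 5689 and 6439 counts in WT libraries, a log2 difference of −0.96 (SE 0.0579, edgeR adjusted p = 1.4e-14). *SGPL1* thus differed in the opposite direction to *ETNK1*. Of the other kinase genes of the pathway, *ETNK2* and *CHKB* did not pass the test and *CHKA* fell, as *SGPL1* did.

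Phosphatidylethanolamine can be formed in mitochondria from phosphatidylserine. *PTDSS2*, a phosphatidylserine synthase that uses phosphatidylethanolamine, fell by 0.54 (520, 420 and 401 counts in ACADSB-/- and 662, 617 and 600 counts in WT libraries). *PTDSS1*, the synthase that uses phosphatidylcholine, had a log2 fold change of −0.05 (95% interval −0.17 to 0.06), and *PISD*, the mitochondrial decarboxylase, had −0.17 (95% interval −0.38 to 0.05). Neither of them passed the test.

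In the branch through CDP-diacylglycerol, which leads to phosphatidylinositol and cardiolipin, 3 of 7 genes rose and 3 fell, where 29.7% and 28.6% of all tested genes did. *CDS1*, a CDP-diacylglycerol synthase of the endoplasmic reticulum, had 914, 686 and 817 counts in ACADSB-/- libraries, against 338, 376 and 350 counts in WT libraries, and rose by 1.13 on the log2 scale (SE 0.101, edgeR adjusted p = 7.4e-11). *CRLS1*, the cardiolipin synthase, rose by 0.58, and *TAMM41*, the mitochondrial CDP-diacylglycerol synthase, fell by 0.50. The lipins, phosphatidate phosphatases that supply diacylglycerol to *CEPT1*, were split, *LPIN1* and *LPIN2* falling by 0.36 and 0.32 and *LPIN3* rising by 0.30.

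Among 7 acyltransferases that remodel finished phospholipids, 2 rose, 2 fell and 3 were not past the threshold, so 4 of 7 were called, near the 58.2% of all tested genes. *LPCAT4* fell by 1.09 and *LPCAT3*, which places polyunsaturated acyl chains on phosphatidylcholine, fell by 0.44, whereas *LPGAT1* rose by 0.70. Of 14 tested breakdown genes 4 were higher and 4 lower, again near the 58.2% called over all genes, with *PLD1*, a phospholipase D that releases choline, rising by 0.75. *PLA2G6*, a calcium-independent phospholipase A2, had 115, 57 and 34 counts in ACADSB-/- and 141, 99 and 92 counts in WT libraries. The groups overlapped, and its log2 fold change was −0.75 (adjusted p = 0.0396 from edgeR). This call ended without ACADSB-/- replicate 2 or 3 or WT replicate 1 or 2 (adjusted p = 0.139, 0.159, 0.0783 and 0.0513 from edgeR). It also ended with library totals alone (0.0534 from edgeR) and with limma on log2(FPKM + 1) with no filter (0.147 from limma). The log2 fold change of *PLA2G6* was −1.26 without ACADSB-/- replicate 1 and −0.44 without ACADSB-/- replicate 3.

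The methyl groups used by *PEMT* come from S-adenosylmethionine. Of 7 tested genes of its supply 3 were higher and 2 lower, where 29.7% and 28.6% of all tested genes were. *MTR*, the methionine synthase, fell by 1.27 (37, 57 and 48 counts in ACADSB-/- and 136, 106 and 92 counts in WT libraries). *MAT1A*, the liver form of methionine adenosyltransferase, rose by 0.75. Of the choline oxidation genes *ALDH7A1* alone could be tested and it did not pass.

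Plasmalogens are ether lipids whose last steps need CDP-ethanolamine. *FAR1*, which makes the fatty alcohol for them, rose by 1.07 (SE 0.0602, edgeR adjusted p = 1.9e-15), and *AGPS*, which forms the ether bond, rose by 0.65. The other 2 tested genes of this list did not pass the test, and 29.7% of all tested genes were higher. Named genes of these lists had all 3 libraries of one group outside the range of the other, unless an overlap is stated. Exceptions were *PTDSS1* and *ALDH7A1*. Most of the named genes were picked for passing the test with the largest change, so their separation is no further result. Among the 52 tested genes of the lists 36 were separated in this way, where 63.6% of all tested genes were.

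**Figure D5:**
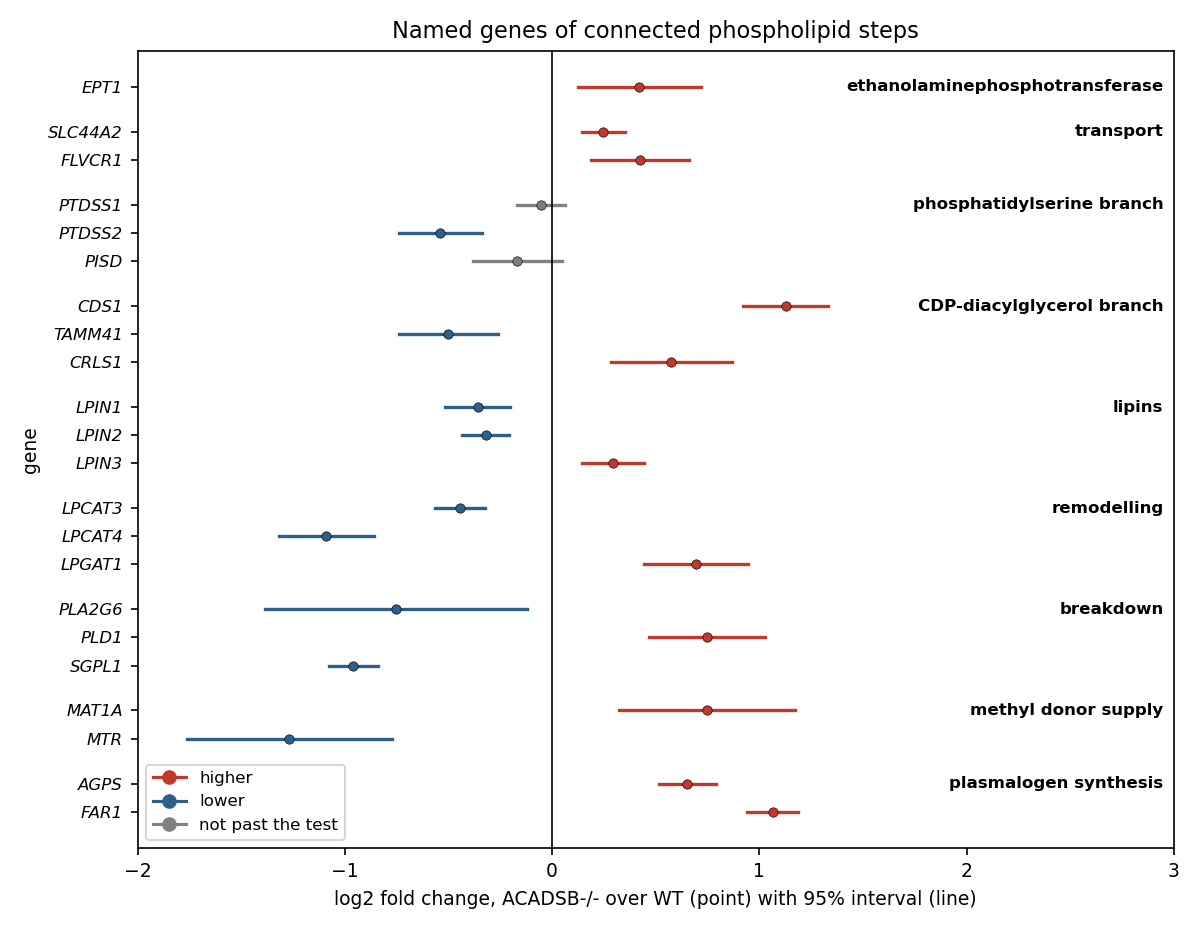
Log2 fold change with 95% interval of genes named from connected phospholipid steps, ACADSB-/- over WT, grouped by list. Points right of 0 are higher in ACADSB-/- bMECs, among them *CDS1* (1.13) and *FAR1* (1.07), and points left of 0 are lower, among them *MTR* (−1.27), *LPCAT4* (−1.09) and *SGPL1* (−0.96).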

How the data were processed

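RNA-seq of 3 ACADSB-/- and 3 WT libraries was analysed. The authors filtered the reads, aligned them to the bovine genome and deposited raw counts per gene and an FPKM table (counts per gene model length and library total). Bismark 0.12.5 is listed in the submitters' processing notes, without a role. Not given in the sources used here were the aligner, the counting tool, its strand setting and the build. The deposited log2 fold change, ratio and p-value columns hold the authors' own comparison and were not used, nor were 3 columns of the FPKM table that match no sample of the series.

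Libraries were matched to groups by sample title. Counts were filtered (filterByExpr, minimum count 10, minimum total 15; 13720 of 15693 genes kept), scaled by TMM (factors 0.978 to 1.02) and tested with edgeR 4.0.16 (quasi-likelihood test, robust, condition alone) in R 4.3.3, with Benjamini-Hochberg adjustment over all tested genes. The study names EB-Seq, which was not run here. Standard errors were taken as the log2 fold change over the root of the F statistic. The coefficient of variation among libraries of a group, which edgeR calls biological, was 6.64% and may be technical here. limma 3.58.1 and DESeq2 1.42.0 served as alternatives, and figures used matplotlib 3.10.9. The FPKM values gave back the counts within 0.05 reads for 99.98% of genes. The edgeR test alone was run on simulated counts, in which far fewer genes changed than were called here. Sums, shares, ratios and neighbour counts were not simulated.

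The 10 genes and the further lists were chosen with earlier results of these data known. Named were the 10 genes, *ACADSB*, and from each further list up to 3 genes past an adjusted p of 0.05 with the largest change, plus *EPT1* and the phosphatidylserine genes. Neighbouring and overlapping genes, single marker genes and *ALDH7A1* were named after their values were seen. For 1 gene of the methyl donor list the values are not reported here.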

Additional observations from a re-analysis of the deposited data

How the results depend on the processing

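The directions and calls of *CEPT1*, *ETNK1*, *PCYT1A* and *CHKA* were the same under all 16 alternatives, which left 3 genes of the pathway higher and 1 lower in each, with log2 fold changes of 1.16 to 1.29, 0.95 to 1.14, 0.50 to 0.64 and −0.53 to −0.43. Of the genes below the threshold *CHKB* and *PEMT* kept their sign under all 16 alternatives, and *PCYT2*, *ETNK2* and *PCYT1B* did not. *PCYT2* had 0.026 with library totals alone, 0.0233 with limma on log2(FPKM + 1), with or without the filter, 0.0235 on log2(FPKM + 0.1), and −0.054 to 0.062 with 1 library left out. *ETNK2* ranged from −0.15 to 0.029 and *PCYT1B* from −0.20 to 0.76 with 1 library left out. Over all genes 7990 were called, and 7134 to 8180 under the alternatives. With a 2-fold change required 1402 were called, and 535 to 1644 under the alternatives. The count was 855 with a mean count of at least 50 and 535 with limma on log2(FPKM + 1). On log2(FPKM + 0.1) it was 848, and on log2(FPKM + 1) with no filter 543. It was 1644 with edgeR and no filter, 1548 with DESeq2, 1465 with limma-voom and 1371 to 1487 with 1 library left out. Low genes shrank when log2(FPKM + 1) was tested unfiltered, *ACADSB* to −0.37 (−1.60 from the counts), *PLA2G6* to −0.34 and *MTR* to −0.46. Of 377 further values for 24 other named genes 367 kept direction and call and 10 lost the call, those of *EPT1* (adjusted p 0.00184 to 0.0987 over the alternatives) and *PLA2G6* (0.0003 to 0.159). The groups share replicate numbers, and the deviations of same-numbered libraries correlated at −0.04 to −0.02. No shared effect of the number was visible, which cannot exclude that same-numbered libraries were handled together. With the replicate block 7806 genes were called, 1403 at 2-fold, 3 genes of the pathway rose and 1 fell. Depth limits *PCYT1B*, at 15 to 50 counts per library.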
